A study of Mus musculus with 24 samples.

Results

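The miRNA profile of normal mouse lung was described from the 12 arrays of wild type animals, which serve as 1 baseline and were not compared with each other by sex. Of 24 arrays in the series, 6 came from wild type males (M WT) and 6 from wild type females (F WT), 1 animal per array. The members described are the 611 mouse miRNAs on the array, chosen by the mouse prefix of their name and not by any measured value. The other 12 arrays, of mice that carry the SP-C/c-raf transgene, entered only in choosing the 27 miRNAs used for scaling and in 1 count of a viral miRNA. The wild type animals were 4 to 6 months old and the labels name no treatment; they serve as controls for a transgene that the surfactant protein C promoter directs to the lung epithelium. One field of the labels calls the tissue of every sample lung adenocarcinoma, while the protocol calls that of the wild type animals normal lung. Cells were cut out of stained frozen sections by laser before RNA was isolated, and which cells were cut is not stated, so the profile is that of a selected part of the lung.

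A miRNA is a short RNA that guides an Argonaute protein to messenger RNAs and lowers their translation or stability. Bases 2 to 8 from its 5′ end, the seed, do most of the pairing, so miRNAs with a common seed form a family and share many targets. The hairpin precursor gives a dominant arm and a minor one; in the older names used on this array the minor arm carries a star. In the lung, miRNAs of the miR-200 group are known from epithelium, miR-126 from endothelium and miR-214 with miR-199a from mesenchymal cells, while the let-7 family is abundant in most differentiated tissues.

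The signal of lung miRNAs was concentrated in the let-7 family. Its members are shown here because several of them differ by a single base and yet lay far apart in signal. The seed is in capitals, the sequences are those of RefSeq on mouse build GRCm38.p6, and they are listed in the order of their signal.
let-7b: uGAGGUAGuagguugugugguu
let-7c: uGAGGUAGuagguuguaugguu
let-7a: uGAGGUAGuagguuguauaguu
let-7e: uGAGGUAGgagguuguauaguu
let-7d: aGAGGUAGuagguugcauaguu
let-7i: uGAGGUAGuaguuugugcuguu
let-7f: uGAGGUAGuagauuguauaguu
let-7g: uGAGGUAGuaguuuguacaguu
miR-98: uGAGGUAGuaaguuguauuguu

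The other miRNAs among the 20 brightest, as far as the RefSeq table holds them, are shown next; each of those printed has a seed of its own.
miR-15b: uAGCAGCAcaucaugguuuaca
miR-22: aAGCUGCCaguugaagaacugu
miR-200c: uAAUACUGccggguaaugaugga
miR-24: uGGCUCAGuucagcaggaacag
miR-92a: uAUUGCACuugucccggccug
miR-125b-5p: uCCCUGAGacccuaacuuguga
miR-1224: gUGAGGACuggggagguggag
miR-23a: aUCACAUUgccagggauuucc
miR-652: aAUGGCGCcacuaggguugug
miR-29a: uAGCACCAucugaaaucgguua
miR-34a: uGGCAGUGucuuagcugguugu

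Each miRNA was measured in 20 spots made of 1 to 4 probes, and its signal on an array is the median spot intensity after background subtraction. The extraction software decided per array whether a miRNA was detected. Its mark could be set where the median signal was negative. The lowest signal of a detected miRNA was -1.025 units on F WT replicate 4 and -1.947 on F WT replicate 5. The brightness of an array is the 75th percentile of intensity over the spots of the 27 miRNAs detected on all 24 arrays, and a level is log2 of signal over brightness, with a floor at -6.64. Brightness ran from 52.8 to 550.3 intensity units on the 12 arrays, and no spot was saturated. Probes differ in how well they bind and light up: among the 36 miRNAs detected everywhere, the brightest and the dimmest probe of a miRNA differed by a median of 8.24-fold. Ranks below are therefore ranks of array signal and not of copy number.

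A small core of the 611 miRNAs was seen in every lung. There were 36 miRNAs (5.89%) detected on all 12 arrays, 40 on 6 to 11 arrays, 103 on 1 to 5 arrays and 432 (70.7%) on none. Where at least 50% of a miRNA's spots had to be well above background, 23 were on all 12 arrays and 46 on at least 6, against 36 and 76. An array detected 81.8 ± 27.9 mouse miRNAs (SD, n = 12), with the lowest number, 51, on M WT replicate 2 and the highest, 150, on F WT replicate 4. Of the 49 miRNAs seen on a single array, 31 were seen only on F WT replicate 4 and 11 only on F WT replicate 5, which were the brightest arrays at 550.3 and 422 units.

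**Figure D1:**
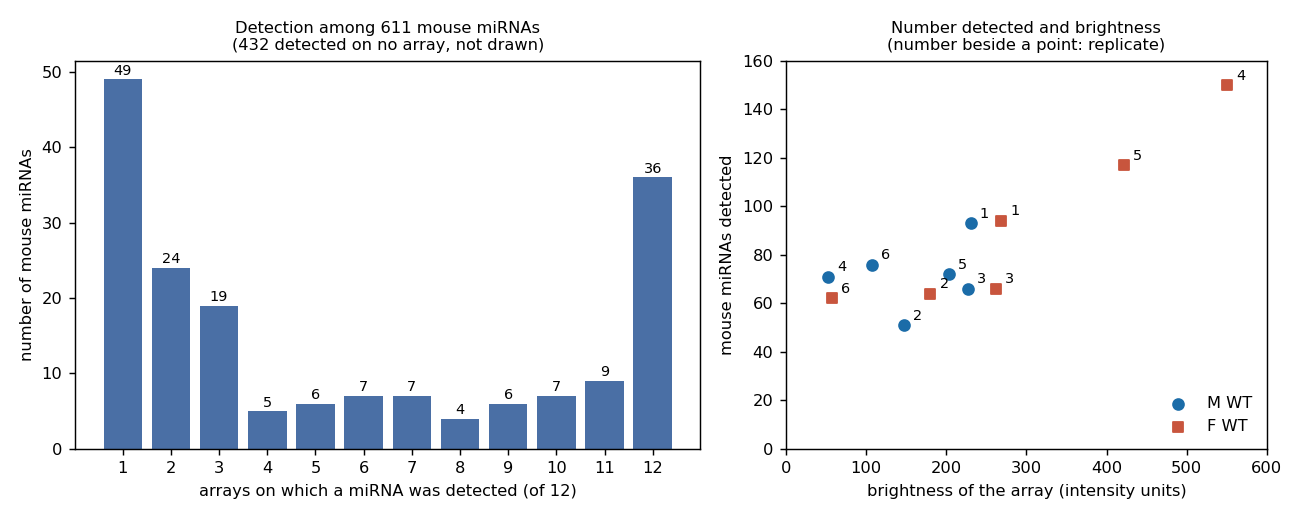
Left, number of mouse miRNAs (y axis) by the number of WT arrays on which they were detected (x axis); most detected miRNAs were seen either on 1 to 3 arrays or on all 12. Right, mouse miRNAs detected on each array against the brightness of the array in intensity units, with circles for M WT, squares for F WT and the replicate number beside each point; F WT replicates 4 and 5 lie apart at the upper right.

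The number detected was higher on brighter arrays, and this rested on that pair of arrays. Over the 12 arrays, Pearson's r between brightness and the number detected was 0.87 (two-sided permutation test, p = 0.0011, adjusted p = 0.0065 over 6 relations tested) and Spearman's rho was 0.68 (permutation p = 0.018, adjusted p = 0.11). With F WT replicates 4 and 5 left out, whose brightness lay farthest from the median, r came to 0.41. The arrays were scanned on 4 days with 2 or 4 WT arrays each, too few for a correlation within a day. With both measures centred on the scan day, r was 0.97 (exact permutation within days, adjusted p = 0.036).

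Array M WT replicate 4 stood apart from the others. Over the 76 miRNAs detected on at least 6 arrays, Spearman correlations of signal between arrays ran from 0.52 (M WT replicate 4 with F WT replicate 5) to 0.98 (M WT replicate 2 with F WT replicate 2), with a median of 0.90 over the 66 pairs. The highest correlations were those among M WT replicates 2 and 3 and F WT replicates 2 and 3, the arrays of scan day 4. They were 0.97 to 0.98, against at most 0.96 for any other pair. Whether the scan day made these arrays alike was not tested. The mean correlation with the other arrays was 0.60 for M WT replicate 4 and 0.83 to 0.90 for the other 11 arrays. Among the 36 miRNAs detected everywhere, M WT replicate 4 had the highest level of the 12 for 11 and the lowest for 14. It was also the dimmest array. F WT replicate 5 carried 822 spots with an outlier mark, against 261 to 405 on the others, while its mean correlation of 0.87 lay within the range of the others. Several results that rest on either array are given with and without it. Ranges of single miRNAs are over all 12 arrays, and M WT replicate 4 forms an end of many of them.

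The brightest miRNA in all 12 lungs was let-7b. Its signal ran from 429 to 4253 intensity units with a median of 2204, it ranked 1st on 12 of 12 arrays, and its level ran from 2.85 over a median of 3.22 to 4.14. It held 30.7% ± 3.38 of the signal summed over detected miRNAs (SD, n = 12), and 17.6% under normexp background correction. On RefSeq's build GRCm38.p6 it lies at chr15:85707325-85707346 on the plus strand, within the span of the long noncoding RNA gene Lncppara. The gene of let-7c closest to it lies at chr15:85706616-85706637, in the same gene span.

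The next places also went to let-7. For let-7c the level ran from 1.15 to 2.37 with a median of 1.86, and it ranked 2nd or 3rd on every array. For let-7a the level ran from -0.28 to 0.75 with a median of 0.14. Levels of let-7b were above those of let-7c, and those of let-7c above those of let-7a, on 12 of 12 arrays, by 1.48 ± 0.31 and 1.56 ± 0.29 on the log2 scale (SD, n = 12). Further down the order neighbours did not separate: let-7a was above let-7e on 9 of 12 arrays with a difference of 0.30 ± 0.35, and let-7e was above miR-15b on 6 of 12. The levels of let-7e had a median of -0.04, those of let-7d of -0.24 and those of let-7i of -0.68.

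All 9 members of the family were detected on at least 7 arrays. There were 7 on all 12, let-7g was on 11 and miR-98 on 7. Together they held 54.9% ± 4.13 of the summed signal, from 48.8% on M WT replicate 6 to 61.0% on F WT replicate 3, and 55.1% ± 4.16 without M WT replicate 4 and F WT replicate 5. The 10 brightest miRNAs, 6 of them of this family, held 64.1% ± 5.03 (41.8% under normexp), and 50% of the signal of an array was reached with 3 to 6 miRNAs. These shares are of array signal, and how far a let-7 probe takes up the RNA of a near relative was not tested.

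**Figure D2:**
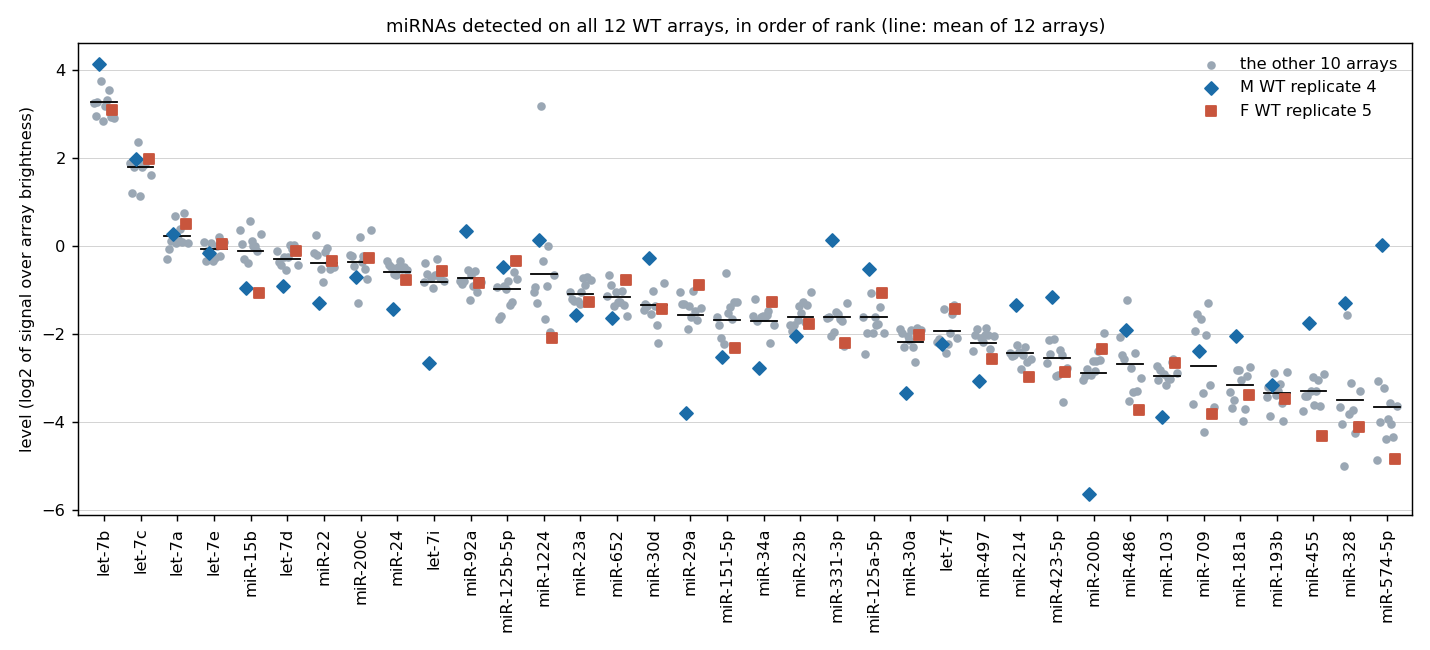
Level of the 36 miRNAs detected on all 12 WT arrays, as log2 of signal over array brightness (y axis), in order of median rank (x axis); points are arrays, with a diamond for M WT replicate 4 and a square for F WT replicate 5, and lines are means of 12 arrays. The first points to separate fully are let-7b and let-7c; the diamonds lie at either edge for many miRNAs.

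Among the rest of the 20 brightest, miR-15b came first. It belongs to the miR-15/16 family, which is known to repress Bcl2 and cyclins. Its level ran from -1.06 on F WT replicate 5 over a median of -0.00 to 0.57, and its rank from 3 to 21. The epithelial miRNA miR-200c, which represses the Zeb factors, had levels of -1.28 to 0.36 with a median of -0.31 and ranks of 3 to 17. For miR-22, levels ran from -1.28 to 0.26 with a median of -0.35. The 3 medians lie closer together than the spread of any of them over the arrays: miR-22 was above miR-200c on 8 of 12 arrays.

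The miR-23/27/24 group held both steady and variable members. These miRNAs come from a pair of transcripts, one holding miR-23a and the other miR-23b, each with a copy of miR-24. The level of miR-24 ran from -1.42 on M WT replicate 4 to -0.33 with a median of -0.50, and the next lowest array was at -0.76. For miR-23a it ran from -1.57 to -0.69 with a median of -1.12, and for miR-23b from -2.05 to -1.03 with a median of -1.70. The third seed of the group was dimmer: miR-27a had a median of -3.67 and miR-27b of -4.50, and they were detected on 11 and 9 arrays. The SD of the level was 0.27 to 0.30 for miR-24, miR-23a and miR-23b. It was 0.90 for miR-27a, which was at the floor on M WT replicate 4, and 0.56 for miR-27b. Without M WT replicate 4 and F WT replicate 5 it was 0.38 for miR-27a and 0.34 for miR-27b. For miR-24, miR-23a and miR-23b it was then 0.11, 0.23 and 0.29.

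Further members of the first 20 were miR-92a, a product of the miR-17 to miR-92 polycistron, with a median level of -0.81 and a range of -1.21 to 0.34; miR-125b-5p, the vertebrate relative of the worm's lin-4, with a median of -0.91 and a range of -1.66 to -0.33; and miR-29a, which represses collagens, with a median of -1.37 and a range of -3.79 to -0.88. The lowest value of miR-29a was on M WT replicate 4, and the next lowest was -1.88. A p53 target, miR-34a, had a median of -1.59 and a range of -2.77 to -1.20. For miR-30d the median was -1.39 and the range -2.19 to -0.27. The median was -1.20 for miR-652, whose gene lies within the span of Tmem164 on the same strand, and -1.63 for miR-151-5p. In this stretch of the order, the upper of 2 neighbours was above the lower on 4 to 9 of 12 arrays, so single places there are within the spread.

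The mean of miR-1224 rested on a single array. Its level was 3.18 on M WT replicate 5 and -2.08 to 0.15 on the other 11 arrays, with a median over all 12 of -0.91. It is known as a mirtron, spliced out of an intron, and lies within the span of Vwa5b2. On that array it ranked 2nd, and its best to worst ranks spanned 2 to 24. Its SD of 1.39 was the largest among the 36 miRNAs detected everywhere.

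The order changed little with the arrays included. Without M WT replicate 4 and F WT replicate 5, 20 of the 20 and 10 of the 10 brightest miRNAs were the same, and 44 miRNAs were detected on all of the 10 arrays left. From the M WT arrays alone 18 of the 20 were the same, and from the F WT arrays alone 20. The 36 miRNAs detected on all 12 arrays filled the first 23 places of the order without a gap. The first exception was miR-26a at place 24, missed on M WT replicate 4 only; the last of the 36, miR-574-5p, was at place 47.

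Several miRNAs that differ by a single base lay far apart in signal. These pairs were picked out after the values were seen, as all pairs of equal length with the same seed, a single mismatch and a member detected on at least 6 arrays; there were 10. They are shown with the seed in capitals; a substitution gives the base of the first-named miRNA, its position from the 5′ end and the base of the second.
miR-29a: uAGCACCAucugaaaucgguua
miR-29c: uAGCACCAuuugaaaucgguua
miR-30a: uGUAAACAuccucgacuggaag
miR-30e: uGUAAACAuccuugacuggaag
miR-10a: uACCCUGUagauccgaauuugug
miR-10b: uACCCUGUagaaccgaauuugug
miR-99a: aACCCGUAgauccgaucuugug
miR-100: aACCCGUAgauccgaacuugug
miR-27a: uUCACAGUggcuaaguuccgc
miR-27b: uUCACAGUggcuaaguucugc
miR-103: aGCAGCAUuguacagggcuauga
miR-107: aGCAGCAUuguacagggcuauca

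The widest gaps were those of miR-29a over miR-29c and miR-30a over miR-30e, and the floor leaves their order unsettled. For miR-29a and miR-29c, which differ by C10U, the former was detected on 12 arrays and the latter on 1, and their levels differed by a mean of 4.57 on the log2 scale, with miR-29c at the floor on 4 arrays. miR-30a and miR-30e differ by C13U and were detected on 12 and 1 arrays. The mean difference was 4.44, with miR-30e at the floor on 11 arrays. The array that detected miR-30e, F WT replicate 4, was among those at the floor. Its level above the floor, -6.46, was on M WT replicate 5, where it was not marked as detected. miR-10a and miR-10b (U12A) were detected on 9 and 0 arrays, with miR-10b at the floor on 9. These 3 differences depend on the floor and understate the gaps where it was reached. Within let-7, let-7a over let-7f (G12A) differed by 2.16 ± 0.26, let-7c over let-7a (G19A) by 1.56, let-7b over let-7c (G17A) by 1.48 and let-7a over let-7e (U9G) by 0.30. The first of each pair is the one with the higher place in the order of these 12 arrays. Its being higher on most arrays was thus set by that choice. In 7 of the 10 pairs it was higher on all 12 arrays.

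The other pairs were closer. For miR-99a over miR-100 (U16A) the difference was 0.75 ± 0.53, with the first higher on 10 of 12 arrays. For miR-103 over miR-107 (G22C) it was 0.73 ± 0.32, on 12 of 12, and for miR-27a over miR-27b (C19U) 0.64 ± 0.53, on 11 of 12. The array cannot tell a difference in abundance between such relatives from a difference between their probes.

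**Figure D3:**
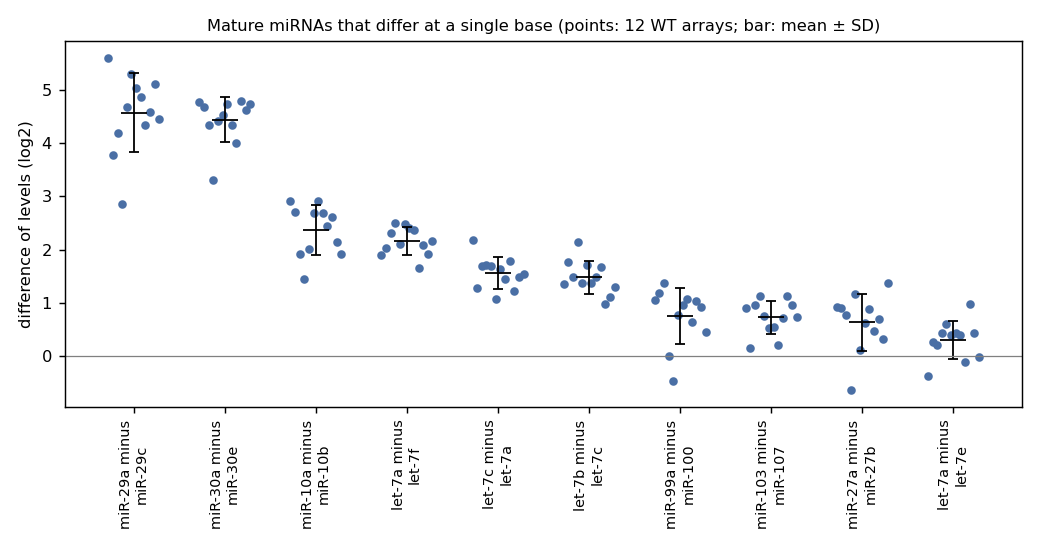
Difference of level (log2, y axis) between mature miRNAs that differ at a single base, for 10 pairs (x axis); points are the 12 WT arrays and bars the mean with its SD; miR-29c, miR-30e and miR-10b were at the floor on 4, 11 and 9 arrays, where the differences depend on it. For miR-29a and miR-30a all 12 points lie above 2, and for let-7a minus let-7e they lie on both sides of 0.

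Families with uneven detection were common. In the miR-30 family, miR-30a and miR-30d were on all 12 arrays, miR-30c on 9, miR-30b on 2 and miR-30e on 1. In the miR-15/16 family, miR-15b and miR-497 were on 12, miR-15a on 11, miR-195 on 10, miR-16 on 3 and miR-322 on 1. In the miR-181 family the numbers were 12 for miR-181a, 8 for miR-181b, 2 for miR-181c and 1 for miR-181d. For miR-26a and miR-26b they were 11 and 3. Both miR-125b-5p and miR-125a-5p were on 12 arrays, while of the miR-99 and miR-100 sequences that share their transcripts miR-99a was on 10 and miR-99b and miR-100 on 5 each.

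The family outside let-7 with the largest share of the summed signal among those listed was miR-23/27/24, with 5.21% ± 1.37. The miR-15/16 family held 4.49% ± 1.64, the miR-200 group 3.25% ± 1.24, the miR-99, miR-100 and miR-125 sequences 3.02% ± 0.80 and miR-30 2.28% ± 0.63. The miR-17 to miR-92 group held 1.97% ± 0.27, nearly all of it miR-92a, since miR-17, miR-18a, miR-19a and miR-19b were detected on no array and miR-20a on 5.

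**Figure D4:**
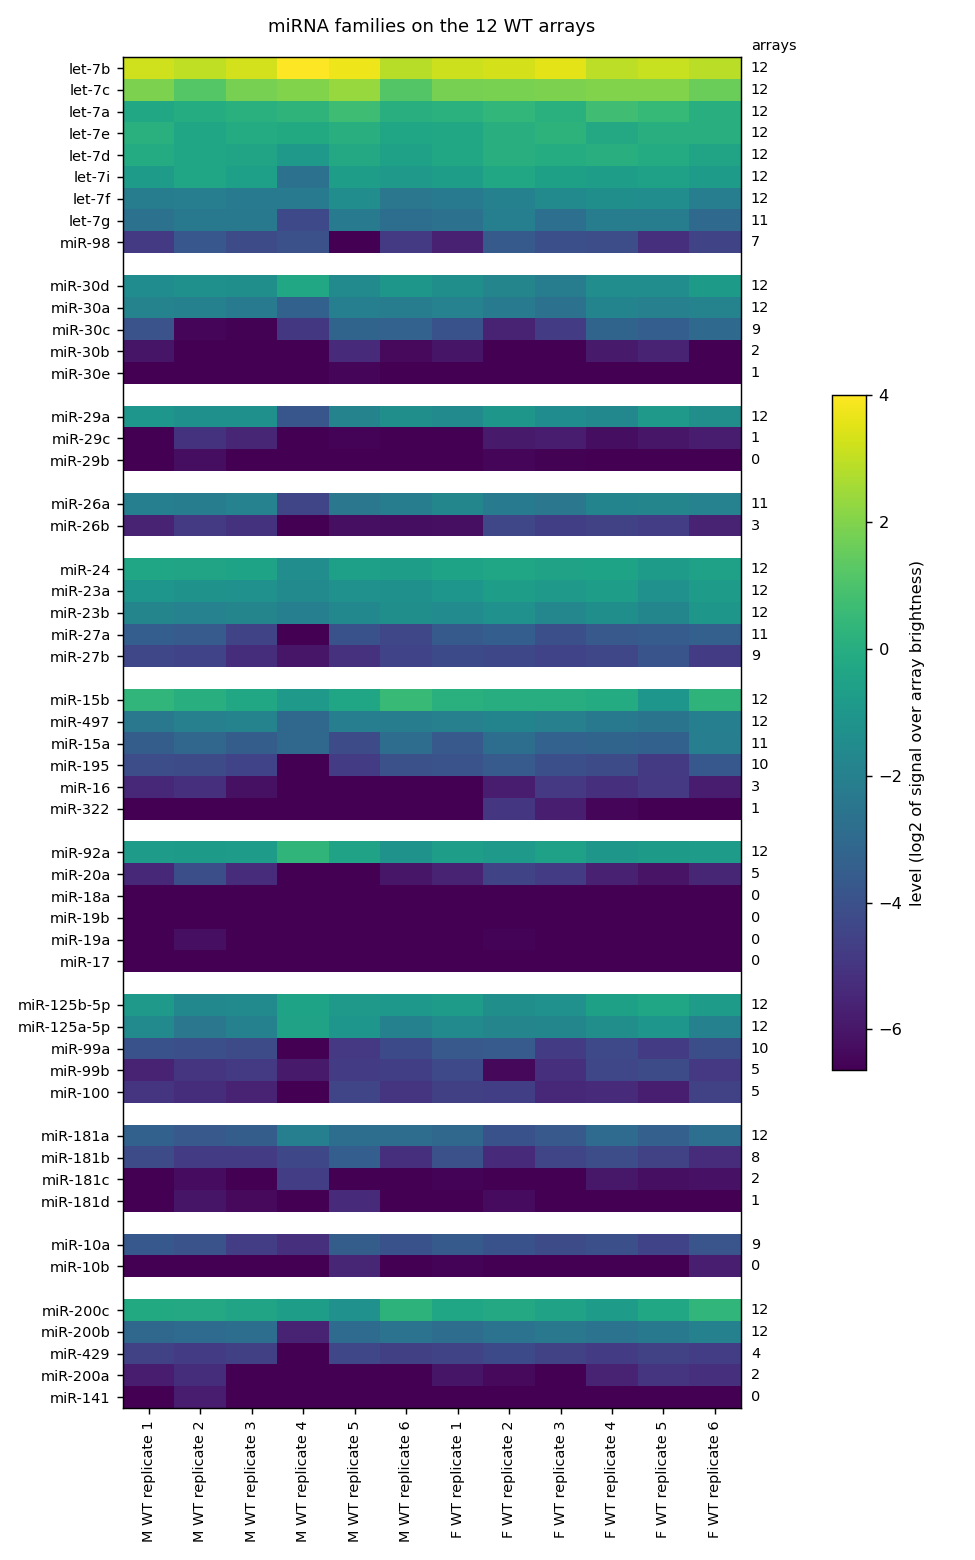
Level (colour, log2 of signal over array brightness) of the members of 11 miRNA families on the 12 WT arrays (columns), with the number of arrays on which each was detected at the right. Dark cells are at or near the floor of -6.64. In most families some members lie near the floor and others above it, and the highest levels are those of let-7b.

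Neighbours in the genome were detected together in some pairs and unevenly in others. Genes within 10 kb of each other on the same strand were paired, a gene with several copies counted with the neighbours of each. In 39 pairs a member was detected on at least 6 arrays, and in 14 of them both were. Of all 398 miRNAs with a RefSeq match, 16.1% were on at least 6 arrays. The other member was on no array in 13 of the 39 pairs, against 65.6% on none among the 398. The pairs leave out star forms, which the 398 include. Of 32 pairs with a member on all 12 arrays, 13 had the other on 3 or fewer. Of all 611 mouse miRNAs, 432 (70.7%) were on no array, 49 on 1, 24 on 2 and 19 on 3. Detection on 3 or fewer arrays was thus less common in these pairs than over all miRNAs. An example is miR-200c and miR-141, 386 bases apart on chromosome 6, with 12 and 0 arrays. Another is miR-15b and miR-16, 122 bases apart on chromosome 3, with 12 and 3. For miR-29a and miR-29b, 331 bases apart on chromosome 6, the numbers were 12 and 0. Of these 13 pairs on 12 against 3 or fewer arrays, 7 are those of miR-92a with neighbours of its 2 genes. The member on all arrays had the higher share of G and C bases in all 7 of them, and in 3 of the other 6, against a lower share in 3. Within the 13 seed families whose members differed by at least 6 arrays, the member on most arrays had the higher share of G and C in 8, an equal share in 1 and a lower share in 4, with a median difference of 4.55 percentage points. These are descriptions over related sequences, with no test.

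The miRNAs of the core and those of the next group had close medians of base composition, with no test made. The share of G and C bases had a median of 47.8% over the 30 of 36 miRNAs on all arrays with a RefSeq sequence and 47.7% over the 34 of 40 on 6 to 11 arrays. The range was 31.8% to 66.7% in the former and 31.8% to 72.7% in the latter. A first base U occurred in 18 of 30 and 18 of 34. The same check is void for miRNAs on 1 to 5 arrays and on none, since 70.9% and 60.4% of them had a sequence in the table. Of the 30, 11 lie within the span of a protein-coding gene on the same strand, such as let-7e and miR-125a-5p in Spaca6 and both copies of miR-103 in Pank2 and Pank3; whether they lie in exons or introns was not looked up.

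Star forms were detected less often than other names. The array holds 115 star forms, of which 24 (20.9%) were detected at all, 6 on 6 arrays or more and 0 on every array. Of the 496 other names, 155 (31.3%), 70 and 36 were. Among the 6 star forms, miR-30b*, miR-140* and miR-877* were on 7 arrays each and miR-483* on 6. Their other arms were on fewer, with 2 for miR-30b, 1 for miR-140 and 0 for miR-877 and miR-483. The remaining ones, miR-30c-2* (8 arrays) and let-7d* (6), were on fewer than miR-30c (9) and let-7d (12). The star thus did not always mark the arm detected less often. Among hairpins with both arms on the array, 25 had an arm detected on all 12 arrays. The other arm was detected on no array in 19 of them, on 1 to 5 in 5, and on 6 or more in 1. That 1 was let-7d* beside let-7d. Of all 611 mouse miRNAs, 432 (70.7%) were on none, 103 on 1 to 5 and 76 on at least 6. The count of 19 in 25 thus lies near the share over all miRNAs. The level of let-7d* was at the floor on most arrays and reached -3.19 on M WT replicate 5; let-7d ranked between 4 and 18 on the 12 arrays.

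miRNAs with low numbers, found early by cloning, made up most of the core. Of the 207 let-7 members and miRNAs numbered up to 200, 25 were on all 12 arrays and 51 (24.6%) on at least 6. Of the 252 with numbers above that and below 660, 9 and 19 (7.54%) were, and of the 152 with numbers from 660 up, 2 and 6 (3.95%).

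The markers of lung cell types were detected unevenly. Over all 611 mouse miRNAs, 12.4% were on at least 6 arrays and 70.7% on none. The lists are too short to be set against these shares. In RNA of many cells cut out together, fewer cells of a type and less RNA per cell cannot be told apart. Which cells were cut is not stated, so the markers describe that selected part of the lung. In the epithelial list of 5, miR-200c and miR-200b were on all 12 arrays, miR-429 on 4, miR-200a on 2 and miR-141 on 0; the level of miR-200b ran from -5.62 on M WT replicate 4 to -1.98 with a median of -2.70, and the next lowest array was at -3.04. Of the ciliated list of 6, miR-34c was on 11 arrays with a median level of -3.54, miR-34b-5p on 9 with a median of -4.48, miR-449a on 1, and miR-34b-3p, miR-449b and miR-449c on 0. Neither of the 2 squamous markers, miR-203 and miR-205, was on any.

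Vessel and stroma markers were split as well. The endothelial miR-126-3p was on 11 arrays, all but M WT replicate 4, with levels of -4.07 to -1.67 and a median of -2.16, while miR-126-5p was on 0. Of the 5 smooth muscle and fibroblast markers, miR-214 was on 12 with a median of -2.47, miR-199a-3p on 11 with a median of -3.27, and miR-143, miR-145 and miR-199a-5p on 1 each.

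Blood markers were split. Of the erythroid list, miR-486 was on 12 arrays with levels from -3.71 to -1.22 and a median of -2.66, miR-451, which matures without Dicer, on 6 with a median of -4.60, and miR-144, its neighbour in the genome, on 0. Of the 6 leukocyte markers, none was on 6 arrays or more. For a list of 6 this cannot be told from the 12.4% over all 611 miRNAs. miR-223, miR-150 and miR-146a were on 3 each, miR-155 on 1, and miR-142-3p and miR-142-5p on 0. F WT replicates 4 and 5, the brightest arrays, were among the 3 for each of miR-223, miR-150 and miR-146a.

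Of 26 listed markers of other tissues, 3 (11.5%) were on at least 6 arrays, against 12.4% of all 611 miRNAs, and 21 (80.8%) were on none, against 70.7%. The striated muscle markers miR-133b and miR-133a were on 10 and 8 arrays, with median levels of -4.05 and -4.74, whereas miR-1, miR-206, miR-208a, miR-208b and miR-499 were on 0. The endocrine marker miR-375 was on 7 with a median of -4.97, and miR-7a and miR-7b were on 0. Of the neuronal list 0 of 4 were on any array, the hepatocyte marker miR-122 was on 1, and of the early embryo list of 11 only miR-290-3p was, on 1 array. A miRNA on 0 arrays was not detectable at this signal, which does not show that the tissue lacks it.

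**Figure D5:**
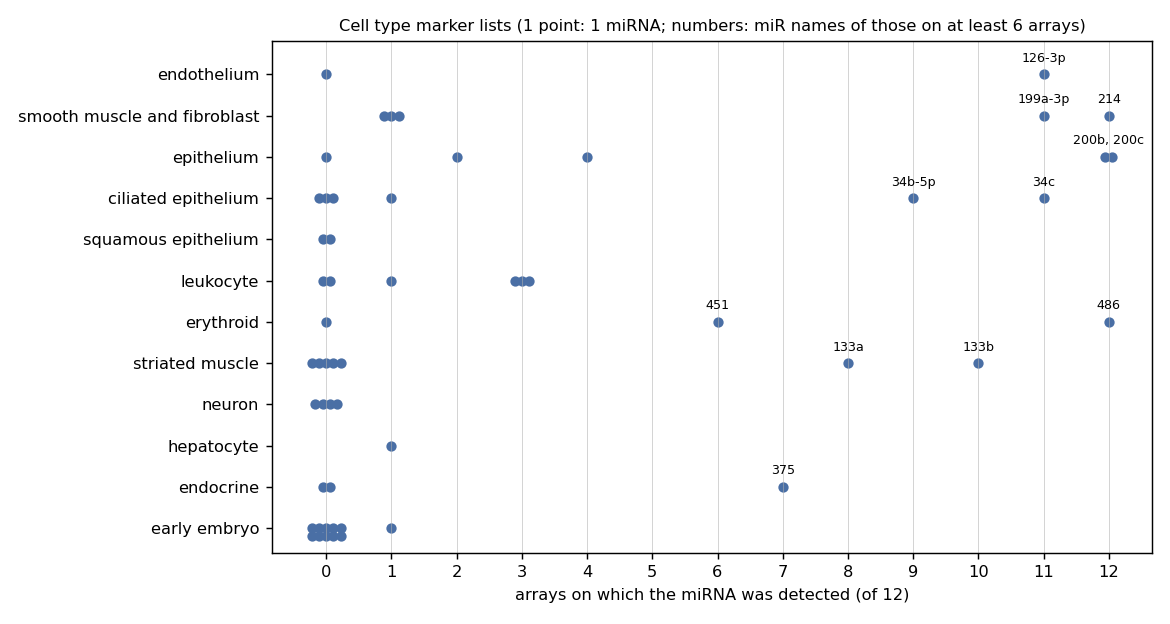
Number of WT arrays, of 12, on which each miRNA of the cell type marker lists was detected (x axis) by list (y axis), with 1 point per miRNA spread sideways where several share a number and names (without miR-) given from 6 arrays up. Points at 6 or more stand in the endothelial, smooth muscle and fibroblast, epithelial, ciliated, erythroid, striated muscle and endocrine lists.

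2 groups of miRNA genes were looked up after the values were seen. Of 48 miRNAs with a RefSeq position within 500 kb of Mir370, in the imprinted region of chromosome 12, 0 were on at least 6 arrays, 5 on 1 to 5 (miR-434-3p, miR-127, miR-411*, miR-337-5p and miR-433) and 43 (89.6%) on none, against 65.6% on none among all 398 miRNAs with a RefSeq match. Of 39 names in the repeat-rich miR-297, miR-466, miR-467 and miR-669 groups, miR-467f was on 6 arrays, 11 were on 1 to 5 and 27 (69.2%) on none, near the 70.7% over all 611. The level of miR-467f was 0.10 on M WT replicate 4, where it ranked 8th, -3.06 on the next highest array and at the floor on the lowest. Of the other miRNAs on exactly 6 arrays, the medians were -5.13 for miR-320, -4.54 for miR-345-5p, -5.66 for miR-149 and -5.60 for miR-483*.

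Spread between arrays, each of a different animal, varied across the core. The median SD of the level over the 36 miRNAs was 0.43, and 0.30 without M WT replicate 4 and F WT replicate 5. The smallest SDs were those of let-7e (0.19), miR-23a (0.27), let-7d (0.27), miR-24 (0.29) and miR-23b (0.30). Without M WT replicate 4 and F WT replicate 5 the 5 smallest were other miRNAs but for miR-24 (0.11), namely miR-214 (0.16), miR-497 (0.17), miR-103 (0.19) and let-7i (0.20), and with quantile scaling or scaling to all spots 0 of the 5 stayed among the smallest. Over all 12 arrays the largest were those of miR-1224 (1.39), miR-574-5p (1.29), miR-328 (1.08), miR-709 (1.02) and miR-200b (0.91). Without both arrays the SD was 0.55 for miR-574-5p, 0.31 for miR-200b and 0.90 for miR-328. It was 1.06 for miR-709 and 1.44 for miR-1224, so the spread of the last 2 came from other arrays. The level of miR-709 was -2.01 to -1.30 on M WT and F WT replicates 2 and 3, the arrays of scan day 4. On the other arrays it was -4.23 to -1.65. Animal, array and scan day cannot be told apart here, and no cause was tested.

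On M WT replicate 4, miR-574-5p was at 0.03 against -4.85 to -3.06 on the others, miR-214 at -1.34 against -2.97 to -2.25 and miR-92a at 0.34 against -1.21 to -0.53. On the same array let-7i was at -2.65 against -0.94 to -0.28, miR-29a at -3.79 and miR-200b at -5.62. The share of G and C bases had a median of 56.5% over the 9 miRNAs with a sequence among the 11 that were highest there and 46.5% over the 12 with a sequence among the 14 that were lowest. Over the 30 miRNAs with a sequence, the Spearman correlation between that share and the deviation of the array from the mean of the other 11 was 0.50 for M WT replicate 4, -0.61 for F WT replicate 4, -0.48 for F WT replicate 5 and between -0.41 and 0.16 for the other 9. These miRNAs share the arrays and their families, and no test was made.

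The question of pairs from a common transcript or cell type was whether their levels varied together. Of 18 listed pairs, 5 had both members on at least 10 arrays. Over the 12 arrays, r between levels was 0.83 for miR-195 and miR-497 (permutation p = 0.0066, adjusted p = 0.013, rho = 0.55, adjusted p = 0.13) and 0.69 for miR-23a and miR-27a (permutation p = 0.0039, adjusted p = 0.012, rho = 0.58, adjusted p = 0.13). Without the 2 arrays farthest from the median, r fell to 0.16 for the former and was 0.56 for the latter. Without M WT replicate 4 alone, r was 0.47 (adjusted p = 0.19 by permutation) and 0.53 (adjusted p = 0.18 by permutation), so neither relation held without that array. Nor did either pass the threshold with the replicate number as a block (adjusted p = 0.096 and 0.075, exact permutation). The same held centred on the scan day (adjusted p = 0.16 and 0.14, exact permutation). Without F WT replicate 5 alone, the adjusted p for miR-195 and miR-497 was 0.06 by permutation. For the other 3 pairs, miR-199a-3p with miR-214, miR-200b with miR-200c and miR-24 with miR-23b, r was -0.41, 0.38 and 0.41 with adjusted permutation p of 0.22, 0.23 and 0.22, and r without the 2 farthest arrays was 0.53, 0.16 and -0.22. The first of these turned positive, at 0.62, without M WT replicate 4. Over all 1326 pairs of the 52 miRNAs on at least 10 arrays the median r was 0.06, with quartiles of -0.42 and 0.55.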

How the data were processed

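The deposited scanner files give spot intensity in arbitrary units, background-subtracted and detrended by Agilent Feature Extraction; the files' header names version 10.7.3.1 and the submitters' processing notes 8.1.3. The design is on mouse build mm9. The authors also deposited a table of intensity values, which for every WT array lay within 1% of the median spot intensity times a constant of that array. Where 2 probes share the spots of a miRNA equally, the median lies between them.

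Replicates are different animals per the labels. The replicate number was taken as the slide, with 1 array of each group under each number. This is an assumption, since the sample titles give a replicate number and name no slide. Control spots and viral miRNAs were left out, and 36 of 611 mouse miRNAs were detected on all arrays. Values under 0.01 times the brightness were set to 0.01. Ranks were taken over all 611 mouse miRNAs and ordered by the median of the 12 ranks. No comparison between groups was made. Relations were tested with two-sided permutation tests of 100000 resamples and Benjamini-Hochberg adjustment over 6 relations. The number of arrays limits the precision.

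Named are the 20 brightest miRNAs, the 5 with the smallest and the 5 with the largest SD among those on all arrays, those of the marker lists and families, members of tested pairs, and up to 5 on exactly 6 arrays; others are said to be chosen after their values were seen or named for a count of 5 or fewer. The members, lists and pairs were chosen with earlier results of these data known. Alternatives were other detection rules, summaries over spots, scalings, floors, normexp (backgroundCorrect, package version 3.58.1) with an offset of 50 on the median spot signal, and arrays left out. The arrays left out together and the centring on scan day were chosen after the data were seen. Sequences and positions are from a RefSeq table on GRCm38.p6, matched by name to the older names of the array. Python 3.11.15, scipy 1.17.1 and R 4.3.3 were used, and the steps were tested on simulated data.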

Additional observations from a re-analysis of the deposited data

Results flagged for a closer look

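Within each sex, an array was singled out where its gap to the nearest of the other 5 took up more of the range of the group than Dixon's 95% limit for 6 values allows, which chance does in about 1 of 20 groups. Of 112 groups examined, 18 held such an array, and in 14 of these it was M WT replicate 4. Its mean correlation with the other arrays was 0.60, against 0.83 to 0.90 for the other M WT arrays. It was low for miR-24 (-1.42), let-7i (-2.65), miR-29a (-3.79), miR-34a (-2.77), miR-200b (-5.62), let-7g (-4.31), miR-30a (-3.35) and miR-26a (-4.42), and at the floor of -6.64 for miR-27a, miR-195 and miR-99a. It was high for miR-574-5p (0.027) and miR-214 (-1.34). F WT replicate 5 was low for miR-15b (-1.06, against -0.10 to 0.28) and miR-133b (-6.16, against -4.45 to -3.56). M WT replicate 5 was high for miR-1224 (3.18, against -1.30 to 0.15) and let-7f (-1.42, against -2.43 to -2.11).

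The array also carries 39 viral miRNAs, which no comparison used. The mark of detection was set for mghv-miR-M1-2, a name from a mouse herpesvirus, on 11 of 12 WT arrays, with signals of 9.41 to 17.6 intensity units, and for mghv-miR-M1-7-3p on 1. In all 24 arrays of the series the former was marked on 23.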

How the results depend on the processing

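The place of let-7b and the make-up of the 20 brightest changed little. Of the 20, 18 to 20 were the same under every other summary over spots, normexp and each set of arrays tried. The deposited table gave the same 20, but its values are the median spot intensity times a constant of each array. It is therefore no separate check. When at least 50% of a miRNA's spots had to be well above background, 23 miRNAs were detected on all arrays and 46 on at least 6 of 12; the rule of signal over 3 times its error set the same marks as the software in all 7332 cases and is no separate check, and the F WT arrays alone gave 55 on all arrays. Under normexp the 10 brightest held 41.8% and let-7b 17.6% of the signal. The median SD was 0.97 when scaled to all spots and 1.14 unscaled, and the median correlation between arrays was 0.62 over all mouse miRNAs. Scaled to all spots, by quantiles or not at all, r was 0.75, 0.10 and 0.86 for miR-199a-3p with miR-214 (reversed), 0.81, 0.73 and 0.92 for miR-200b with miR-200c, and 0.94, 0.93 and 0.97 for miR-24 with miR-23b, all past the threshold except 0.10. Centred on group means, r for miR-23a with miR-27a was 0.58 (permutation, adjusted p = 0.10). The replicate block took differences of the M WT and F WT arrays of the same replicate number (n = 6, exact permutation). There r was -0.12 for miR-200b with miR-200c, 0.79 for miR-195 with miR-497 and 0.82 for miR-23a with miR-27a. None of these passed the threshold. For brightness and the number detected r was 0.98 (adjusted p = 0.042, exact permutation). Correlations of deviations between the M WT and F WT arrays of a number ran from -0.20 to 0.72. That the number stands for a shared slide is an assumption, and it does not mark a shared animal. Centred on the scan day, an alternative chosen after the data were seen, r was 0.79 for miR-195 with miR-497 and 0.83 for miR-23a with miR-27a, neither past the threshold by exact permutation. Without M WT replicate 4 and F WT replicate 5 together, r was 0.87 for brightness and the number detected (adjusted p = 0.057), 0.54 and -0.22 for miR-199a-3p with miR-214 and miR-24 with miR-23b, 0.16 for miR-195 with miR-497 and 0.64 for miR-23a with miR-27a, none past the threshold by permutation. Leaving out 1 array at a time, r ran from -0.56 to 0.62 for miR-199a-3p with miR-214, -0.02 to 0.51 for miR-24 with miR-23b, 0.47 to 0.89 for miR-195 with miR-497, 0.53 to 0.75 for miR-23a with miR-27a, 0.26 to 0.49 for miR-200b with miR-200c and 0.71 to 0.90 for brightness. The causes were not tested. Signal over background limits detection: brightness ran from 52.8 to 550.3 units.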
